A study of Mus musculus with 18 samples.

Results

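The genes described here are the mouse tubulins, the proteins of the gamma-tubulin complex and the tubulin tyrosine ligase-like (Ttll) enzymes. They were chosen by gene symbol: every symbol that starts with Tuba, Tubb, Tubd, Tube or Tubg and a number, or with Tubal, Tubgcp or Ttll, without pseudogenes named with -ps. The rule found 38 genes among the 46418 symbols present in all 18 tables. Of these, 20 were tubulins, 5 were Tubgcp genes and 13 were Ttll genes.

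Messenger RNA was measured in 18 libraries from male C57BL/6J mice, 3 in each of 6 groups. Zfp541 encodes a zinc-finger protein of male meiosis, and mice without it (KO, Zfp541-/-) were compared with mice that carry 1 intact copy (Het, Zfp541+/-). The groups were P18 spermatocytes of KO and Het mice, P18 testis of KO and Het mice, and P14 testis of KO and Het mice, where P14 and P18 are days after birth. The series calls the 3 libraries of a group biological replicates and does not say which came from separate animals, so p-values measure the spread between these libraries. No wild type is among the groups, so every control carried a mutant copy too. How spermatocytes were isolated is not given in the labels, and the extraction note names testes for all libraries.

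Microtubules are built from pairs of alpha- and beta-tubulin, each encoded by several genes (isotypes), and gamma-tubulin with its Tubgcp partners starts them. Most Ttll enzymes add glutamate (glutamylases) or glycine (glycylases) to the tails of tubulin, marks that are abundant on the axoneme of cilia and of the sperm flagellum. Tuba3a and Tuba3b are alpha-tubulins of the testis, while Tuba1a, Tuba1b and Tuba1c are the general alpha-tubulins of most tissues.

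The 3' ends of the coding sequences show how the isotypes differ where Ttll enzymes act. Each line gives the last 45 coding bases of 1 gene, 5′ to 3′ on its own strand, from the GENCODE M21 transcripts (GRCm38), and the last codon before the stop is in capitals.
Tuba3a (chr6:125278358-125278402, minus strand): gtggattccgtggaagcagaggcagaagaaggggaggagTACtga
Tuba3b (chr6:145621343-145621387, plus strand): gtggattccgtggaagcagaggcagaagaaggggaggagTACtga
Tuba1c (chr15:99037965-99038009, plus strand): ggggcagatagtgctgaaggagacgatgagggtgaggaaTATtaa
Tuba4a (chr1:75215622-75215666, minus strand): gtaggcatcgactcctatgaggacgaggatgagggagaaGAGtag

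The Tuba3a and Tuba3b ends were identical, although the 2 genes lie far apart on chromosome 6 and 41 of their 1353 coding bases differ (97% identity). The last codon was TAC in Tuba3a and Tuba3b and TAT in Tuba1c, both of which encode tyrosine, and GAG, for glutamate, in Tuba4a. Reads from such close copies are hard to place: 35.3% of the 50-base stretches of Tuba3a, 29.6% of Tuba3b, 75.5% of Tuba1a, 75.1% of Tuba1b and 52.7% of Tuba1c also occurred in transcripts of other genes. The split of reads between copies is therefore uncertain. By contrast, Ttll6, Ttll11, Ttll12, Ttll13 and Tubd1 shared 0% and Ttll8 shared 6.30%.

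Levels are the deposited RPKM (P14 testis and P18 spermatocytes) or FPKM (P18 testis), reads or fragments per kilobase of gene and per M (mega) of the library total, rescaled between libraries within each kind of sample. The deposited values held 9.26 to 18.31 M reads per library in spermatocytes, 12.81 to 16.95 M in testis of P18 and 17.96 to 21.12 M in testis of P14. Being per length, they can be set side by side between genes, with a limit for genes that share sequence. Tuba1a, Tuba1b and Tuba1c may read too low at P18, where reads of near-identical copies were not placed as at P14 (given with the comparison of ages). Groups were compared with limma on log2 of the level plus 0.5, with p-values adjusted over all genes by Benjamini-Hochberg and a threshold of 0.05. Every log2 difference below is on that scale, which understates changes of low genes, and is given with its SE.

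Zfp541 averaged 12.5 ± 0.874 in KO spermatocytes and 42.4 ± 11.2 in Het spermatocytes (SD, n = 3 each), and 10.3 ± 1.03 in KO testis and 25.0 ± 4.26 in Het testis at P18 (SD, n = 3 each). At P14 it averaged 4.03 ± 0.905 in KO testis and 8.67 ± 0.933 in Het testis. Zfp541 passed the test at P18, but its adjusted p at P14 was 0.0783. The spermatocyte libraries held a summed level of 10 Sertoli cell markers of 21.5 to 49.7 in KO and 35.3 to 63.3 in Het, against 1197 to 1265 in KO testis and 914 to 1144 in Het testis at P18. Markers of peritubular myoid cells, the contractile layer around the tubules, summed to 55.8 to 198 in KO spermatocytes and 65 to 184 in Het spermatocytes, against 117 to 155 in KO testis and 107 to 136 in Het testis. No marker had a mean of 0 in any group. The libraries were not alike in late meiotic content: the sum of 6 genes of late pachytene and after was 812 to 1701 in Het spermatocytes and 359 to 896 in Het testis at P18, with Het replicate 3 the highest of the spermatocytes, and Het replicate 1 the highest and replicate 3 the lowest of the testes. In RNA of whole tissue or of cell fractions, fewer cells of a type and less RNA per cell cannot be told apart.

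Both testis alpha-tubulins were lower in KO than in Het at P18, in spermatocytes and in testis. As counted, Tuba3a had the highest level of any member in each of the P18 groups. Tuba3a (chr6:125278274-125286042) was at 394, 448 and 411 in KO spermatocytes and at 697, 675 and 971 in Het spermatocytes. In P18 testis it was at 172, 199 and 194 in KO and at 573, 429 and 359 in Het. All 3 KO libraries lay below all 3 Het libraries in both comparisons. Tuba3a fell by 0.88 ± 0.15 on the log2 scale in KO spermatocytes (adjusted p = 0.00409), where Het was 1.87 times KO, and by 1.24 ± 0.17 in KO testis (adjusted p = 0.00664), where Het was 2.41 times KO.

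Tuba3b (chr6:145615757-145621479) changed in the same direction. It was at 214, 250.3 and 239.6 in KO spermatocytes, against 587, 519 and 872 in Het spermatocytes, a fall by 1.46 ± 0.19 (adjusted p = 0.0015). In testis at P18 it was at 140.3, 161 and 159 in KO and at 547, 401 and 316 in Het, and fell by 1.42 ± 0.19 (adjusted p = 0.00649). The groups did not overlap. Tuba3a made up 64.0% ± 0.828 of the level of the pair in KO spermatocytes and 54.5% ± 1.93 in Het spermatocytes (SD, n = 3 each), and 55.1% ± 0.163 in KO testis and 52.0% ± 1.05 in Het testis at P18. Tuba8, an alpha-tubulin often counted with the testis forms, had a mean below 1 in all 6 groups.

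**Figure D1:**
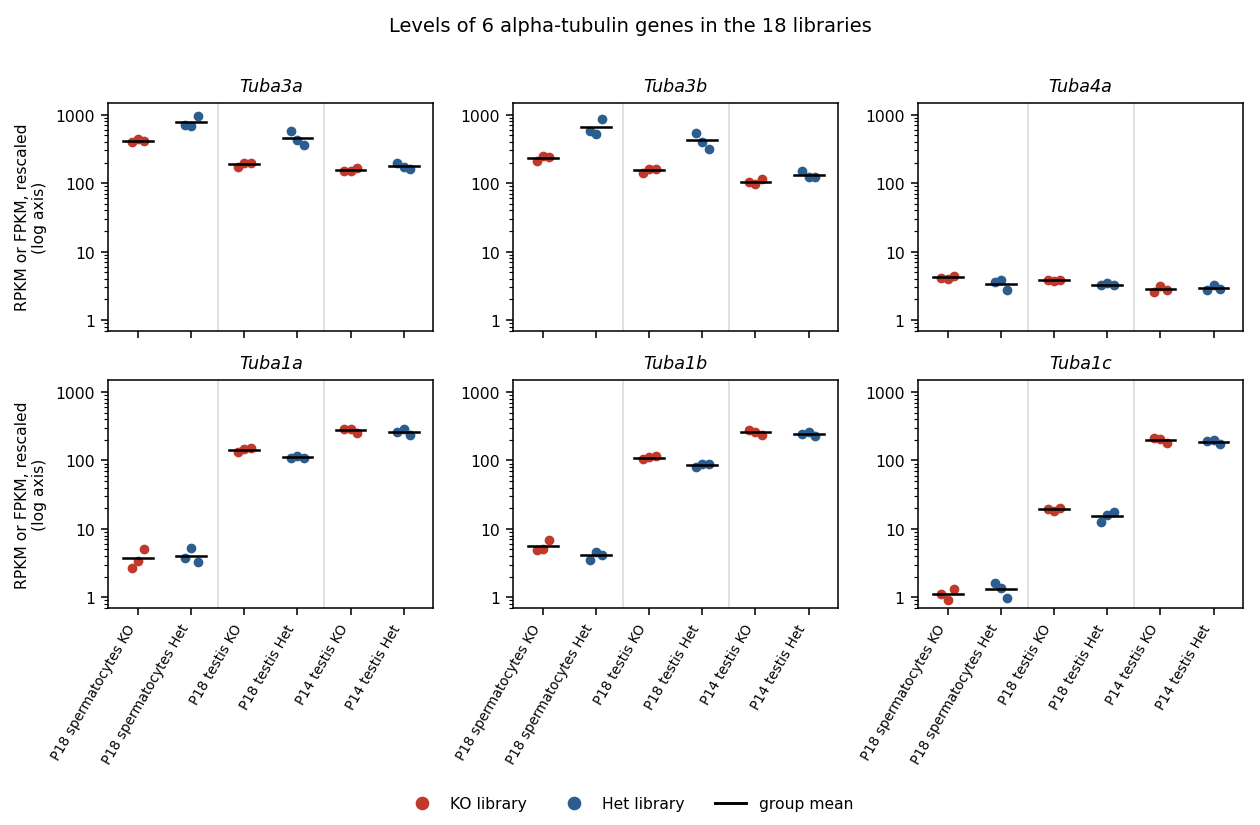
Level (RPKM or FPKM, rescaled, log axis) of Tuba3a, Tuba3b, Tuba4a, Tuba1a, Tuba1b and Tuba1c in each library (points) with the group mean (line), for spermatocytes at P18, testis at P18 and testis at P14, KO left of Het. Tuba3a and Tuba3b sit between 214 and 971 in spermatocytes of both genotypes, where the 3 Tuba1 genes sit between 0.919 and 6.89.

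The general alpha-tubulins went the other way in P18 testis and had low levels in spermatocytes. Tuba1a (chr15:98949837-98953703) was at 131, 148 and 151 in KO testis and at 108, 115 and 108 in Het testis, and rose by 0.37 ± 0.07 on the log2 scale (adjusted p = 0.0158). Tuba1b (chr15:98931425-98934565) was at 103, 110.4 and 115 in KO testis and at 81.5, 88.7 and 89.4 in Het testis, and rose by 0.34 ± 0.07 (adjusted p = 0.0176). Each group of 3 stood apart from the other for both genes. Tuba1c, at 19.3 ± 1.28 in KO testis and 15.4 ± 2.57 in Het testis (SD, n = 3 each), did not pass (0.32 ± 0.13, adjusted p = 0.114), nor did Tuba4a (0.19, adjusted p = 0.15). The calls of Tuba1a and Tuba1b were lost in the fits that left out either Het replicate 2 or 1 of KO replicates 2 and 3 (adjusted p 0.0549 to 0.0736), and with 1 fit over all 18 libraries (adjusted p 0.156 and 0.0728). Beside these rises, the summed Sertoli marker level was higher in every KO testis library than in any Het testis library; its part in the result was not tested.

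In spermatocytes Tuba1a was at 2.66, 3.40 and 5.03 in KO and at 3.71, 5.29 and 3.24 in Het, and Tuba1b at 4.99, 5.04 and 6.89 in KO and at 3.56, 4.62 and 4.19 in Het. Neither passed the limma test between genotypes (adjusted p = 0.697 for Tuba1a and 0.0966 for Tuba1b), although every KO library of Tuba1b lay above every Het library. Tuba1b passed as higher in KO with the values as deposited (adjusted p = 0.0315) and, with Tuba4a, in 1 fit over all 18 libraries (adjusted p 0.00259 and 0.00378). Against testis of the same genotype and age, Tuba1a was 38.8-fold lower in KO spermatocytes and 27.1-fold lower in Het spermatocytes, by the ratio of means. Tuba1b was 19.5-fold lower in KO spermatocytes and 21-fold lower in Het spermatocytes. Tuba3a stood the other way round: it rose by 1.19 ± 0.17 in KO spermatocytes over KO testis (adjusted p = 0.000114) and by 0.91 ± 0.17 in Het spermatocytes over Het testis (adjusted p = 0.00087). Tuba3b rose by 0.65 ± 0.21 in KO (adjusted p = 0.0188) and by 0.77 ± 0.21 in Het (adjusted p = 0.00858); its call in KO was lost when replicate 2 or 3 of the KO spermatocytes or replicate 1 of the KO testes was left out (adjusted p 0.0513 to 0.0626).

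Shares within a library do not depend on the scaling between libraries. Tuba3a and Tuba3b together held 97.9%, 98.1% and 97.3% of the summed alpha-tubulin level in KO spermatocytes and 99.0%, 98.7% and 99.4% in Het spermatocytes. In P18 testis they held 54.7%, 56.3% and 54.8% in KO and 84.5%, 78.8% and 75.5% in Het, with no overlap. At P14 they held 24.5%, 24.7% and 29.8% in KO and 33.0%, 28.4% and 30.5% in Het, and the groups overlapped. Tuba1a, Tuba1b and Tuba1c held 44.1% ± 0.846 of alpha-tubulin in KO testis and 20.1% ± 4.46 in Het testis at P18 (SD, n = 3 each). The P14 shares rest on reads that the P18 tables place differently (given with the comparison of ages). For the same reason, the shares of Tuba1a, Tuba1b and Tuba1c at P18 may be too low beside Tuba3a and Tuba3b, which share less sequence.

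The summed level of all 8 alpha-tubulins was lower in KO at P18. It was 621, 712 and 668 in KO spermatocytes and 1297, 1210 and 1854 in Het spermatocytes, and 570.1, 640.1 and 645 in KO testis and 1326, 1053 and 894 in Het testis. The sum of the 8 beta-tubulins was 308 ± 17.5 in KO spermatocytes and 286 ± 19.6 in Het spermatocytes, and 372 ± 26.8 in KO testis and 375 ± 19.6 in Het testis (SD, n = 3 each). The ratio of alpha to beta sums was thus 2.16 ± 0.0384 in KO spermatocytes and 5.05 ± 0.862 in Het spermatocytes, and 1.66 ± 0.0174 in KO testis and 2.89 ± 0.427 in Het testis at P18. At P14 it was 2.80 ± 0.0765 in KO testis and 2.95 ± 0.0954 in Het testis. These ratios are given with no test, and the KO and Het libraries overlapped in them at P14 alone. Ratios at P14 and P18 cannot be set against each other. Reads of Tuba1a, Tuba1b and Tuba1c were placed differently at P14, and Tuba1a and Tuba1c had another gene length there. At P18 the alpha sums may hold too little of these 3 genes.

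**Figure D2:**
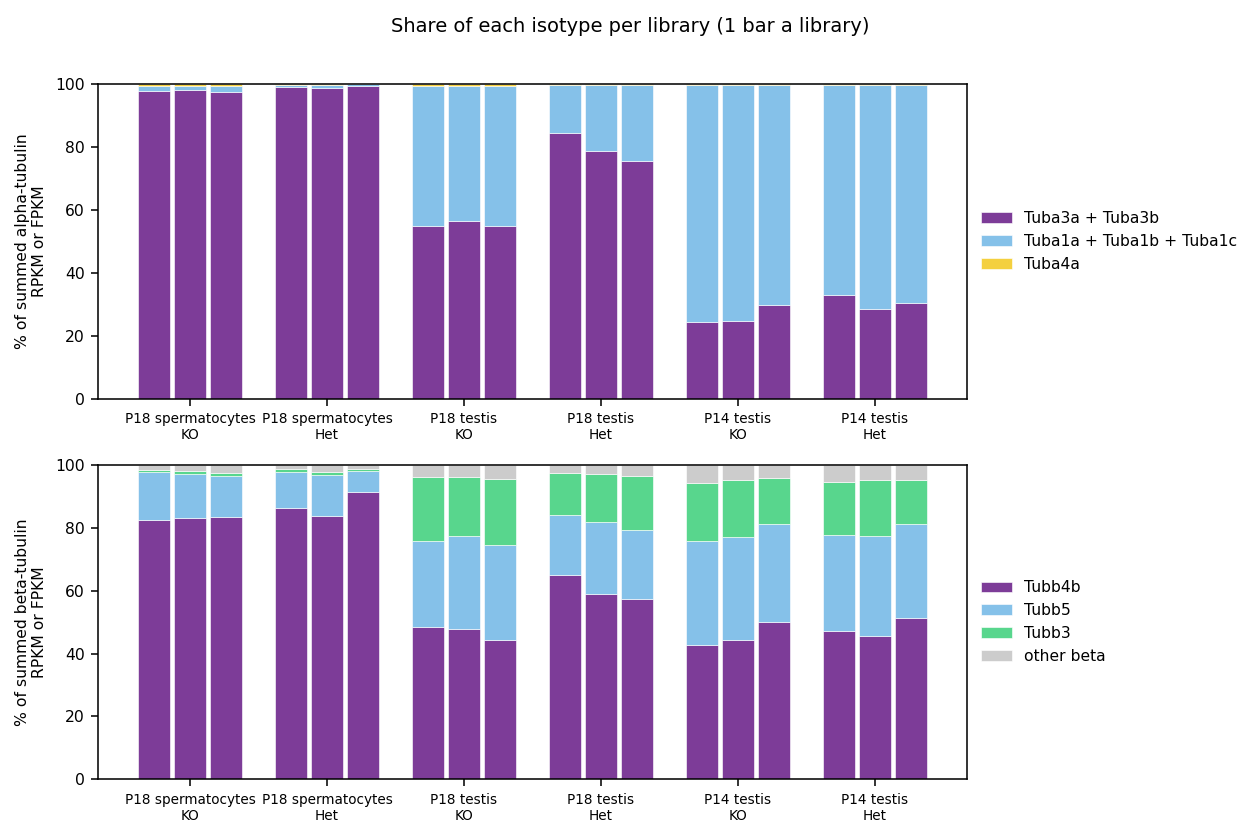
Share of the summed alpha-tubulin level (upper panel) and of the summed beta-tubulin level (lower panel) held by each isotype or set of isotypes, in percent, with 1 bar for each library and KO left of Het in each kind of sample. Tuba3a and Tuba3b hold a mean of 55.3% in KO testis and 79.6% in Het testis at P18, and 97.8% in KO spermatocytes and 99.1% in Het spermatocytes.

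Among the beta-tubulins, Tubb4b, a broadly made isotype found in axonemes, was the most abundant. It was at 238, 268 and 261 in KO spermatocytes and at 235, 232 and 281 in Het spermatocytes, which overlapped (0.04 ± 0.10, adjusted p = 0.784). In P18 testis it was at 165, 182 and 173 in KO and at 258, 218 and 206 in Het, and fell by 0.38 ± 0.09 (adjusted p = 0.0336). The testis groups did not overlap, but the call ended without Het replicate 2 or any 1 KO library (adjusted p 0.0807 to 0.101). Tubb4b held 82.9% ± 0.357 of beta-tubulin in KO spermatocytes and 87.1% ± 3.87 in Het spermatocytes, and 46.8% ± 2.21 in KO testis and 60.4% ± 3.94 in Het testis at P18.

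Tubb5 (chr17:35833921-35838306), the main beta-tubulin of dividing cells, rose in both. It was at 43.7, 46.0 and 41.6 in KO spermatocytes and at 31.0, 36.3 and 21 in Het spermatocytes (0.60 ± 0.19, adjusted p = 0.0439), and at 93.8, 113 and 119 in KO testis and 76.1, 83.3 and 79.5 in Het testis at P18 (0.44 ± 0.10, adjusted p = 0.025). KO lay above Het in every library of both comparisons. The summed level of 6 spermatogonia markers was 302 to 331 in KO spermatocytes and 157 to 224 in Het spermatocytes, and 139 to 156 in KO testis and 101 to 123 in Het testis; its part in the Tubb5 result was not tested. Tubb3, best known from neurons, was at 69.2, 71.4 and 82.5 in KO testis and at 53.0, 56.8 and 61.4 in Het testis (0.38 ± 0.09, adjusted p = 0.0301), with no overlap. It was 28.4-fold lower in KO spermatocytes than in KO testis and 25.2-fold lower in Het spermatocytes than in Het testis.

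Tubb6 was at 10.4, 10.9 and 12.4 in KO testis and at 7.76, 7.60 and 9.73 in Het testis, again without overlap (0.41 ± 0.12, adjusted p = 0.0486). All of these rises of beta-tubulins in P18 testis ended in fits without 1 library: Tubb3 and Tubb6 without any 1 of Het replicates 1 and 2 and the 3 KO libraries, and Tubb5 when Het replicate 1 or 2 or 1 of KO replicates 2 and 3 was left out (adjusted p 0.0545 to 0.146 over these fits). In spermatocytes the call of Tubb5 ended without Het replicate 1 or any 1 KO library (adjusted p 0.0774 to 0.125). Tubb2a, a general isotype, had group means of 1.75 to 5.22 and did not pass between genotypes. Tubb2b had means of 0.247 to 2.25. Tubb1, the isotype of platelets, and Tubb4a, of the nervous system, stayed below a mean of 1 in all groups.

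The largest differences between KO and Het were those of Ttll enzymes. With no filter on low values, 7 of the 9 glutamylases fell in KO spermatocytes, Ttll1, Ttll4, Ttll5, Ttll6, Ttll9, Ttll11 and Ttll13, where 9.75% of all genes fell and 2.94% rose. The median log2 difference of the 9 was -1.30, against 0.02 over all genes. The other two did not pass: Ttll2 (-0.01) and Ttll7, which was at 0.98, 1.05 and 0.84 in KO spermatocytes and at 0.626, 0.624 and 0.527 in Het spermatocytes, higher in every KO library (0.41 ± 0.16, adjusted p = 0.168). In P18 testis 5 of the 9 fell with no filter, where 6.74% of all genes fell and 1.01% rose. With the filter used for every other test, a level of at least 1 in at least 3 libraries of a fit, Ttll11 fell there too, and 17.0% of all genes did. Ttll6, Ttll8 and Ttll11 were below 1 in every KO spermatocyte library, so they reached that filter through the Het libraries; they passed in spermatocytes with no filter as well (adjusted p 0.00406, 0.000764 and 0.00225). Ttll8, which starts glycine chains in mouse, fell in both. Ttll12, which is not known to add glutamate or glycine, was the 1 Ttll gene that rose in either.

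Ttll6 (chr11:96133786-96165451), a glutamylase that lengthens glutamate chains, was at 0.245, 0.499 and 0.588 in KO spermatocytes and at 6.46, 6.20 and 17.9 in Het spermatocytes. In testis of that age it was at 0.917, 0.733 and 1.25 in KO and at 10.7, 8.02 and 5.32 in Het. The groups lay far apart in both. Ttll6 fell by 3.35 ± 0.40 in KO spermatocytes (adjusted p = 0.0011), where the Het mean was 23.0 times the KO mean, and by 2.50 ± 0.26 in KO testis (adjusted p = 0.00398), where it was 8.28 times. From 12 to 33 reads stood behind each KO spermatocyte value and 218 to 1127 behind each Het spermatocyte value.

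Ttll8 (chr15:88890633-88954418) was at 0.528, 0.587 and 0.562 in KO spermatocytes and at 9.64, 8.67 and 17.1 in Het spermatocytes, and fell by 3.48 ± 0.25 (adjusted p = 0.000162; Het mean 21.1 times KO). In P18 testis it was at 1.68, 1.95 and 1.65 in KO and at 13.8, 9.82 and 6.83 in Het, a fall by 2.18 ± 0.24 (adjusted p = 0.00411). No KO library reached any Het library. The other mouse glycylases did not pass in limma: Ttll3, which starts chains, was at 2.33 ± 0.209 in KO spermatocytes and 3.44 ± 0.678 in Het spermatocytes (adjusted p = 0.0724) and at 6.05 ± 0.146 in KO testis and 6.17 ± 0.00998 in Het testis (SD, n = 3 each; adjusted p = 0.797). Ttll3 passed as lower in KO spermatocytes with limma-voom on reads recovered from the values (adjusted p = 0.0351) and without Het replicate 2 (adjusted p = 0.0303). Ttll10, which lengthens them in mouse, had means of 1.21 in KO testis and 0.904 in Het testis at P18 (adjusted p = 0.325) and was too low in spermatocytes to be tested.

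Ttll13 (chr7:80246376-80260821) and Ttll11 (chr2:35751241-35979913) also lengthen glutamate chains. Ttll13 was at 5.24, 3.97 and 4.03 in KO spermatocytes and at 28.6, 24.3 and 48.6 in Het spermatocytes (-2.75 ± 0.25, adjusted p = 0.000367), and at 4.86, 4.29 and 4.59 in KO testis and 26.1, 17.6 and 13.5 in Het testis (-1.90 ± 0.22, adjusted p = 0.00478). Ttll11 was at 0.332, 0.435 and 0.359 in KO spermatocytes and at 2.89, 2.94 and 5.02 in Het spermatocytes (-2.20 ± 0.24, adjusted p = 0.000654), and at 1.51, 1.48 and 1.80 in KO testis and 4.21, 3.47 and 2.32 in Het testis (-0.84 ± 0.21, adjusted p = 0.0317). KO was lower in every library for both genes. The Ttll11 call in testis ended without Het replicate 1 or 2 or any 1 KO library (adjusted p 0.0749 to 0.101).

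**Figure D3:**
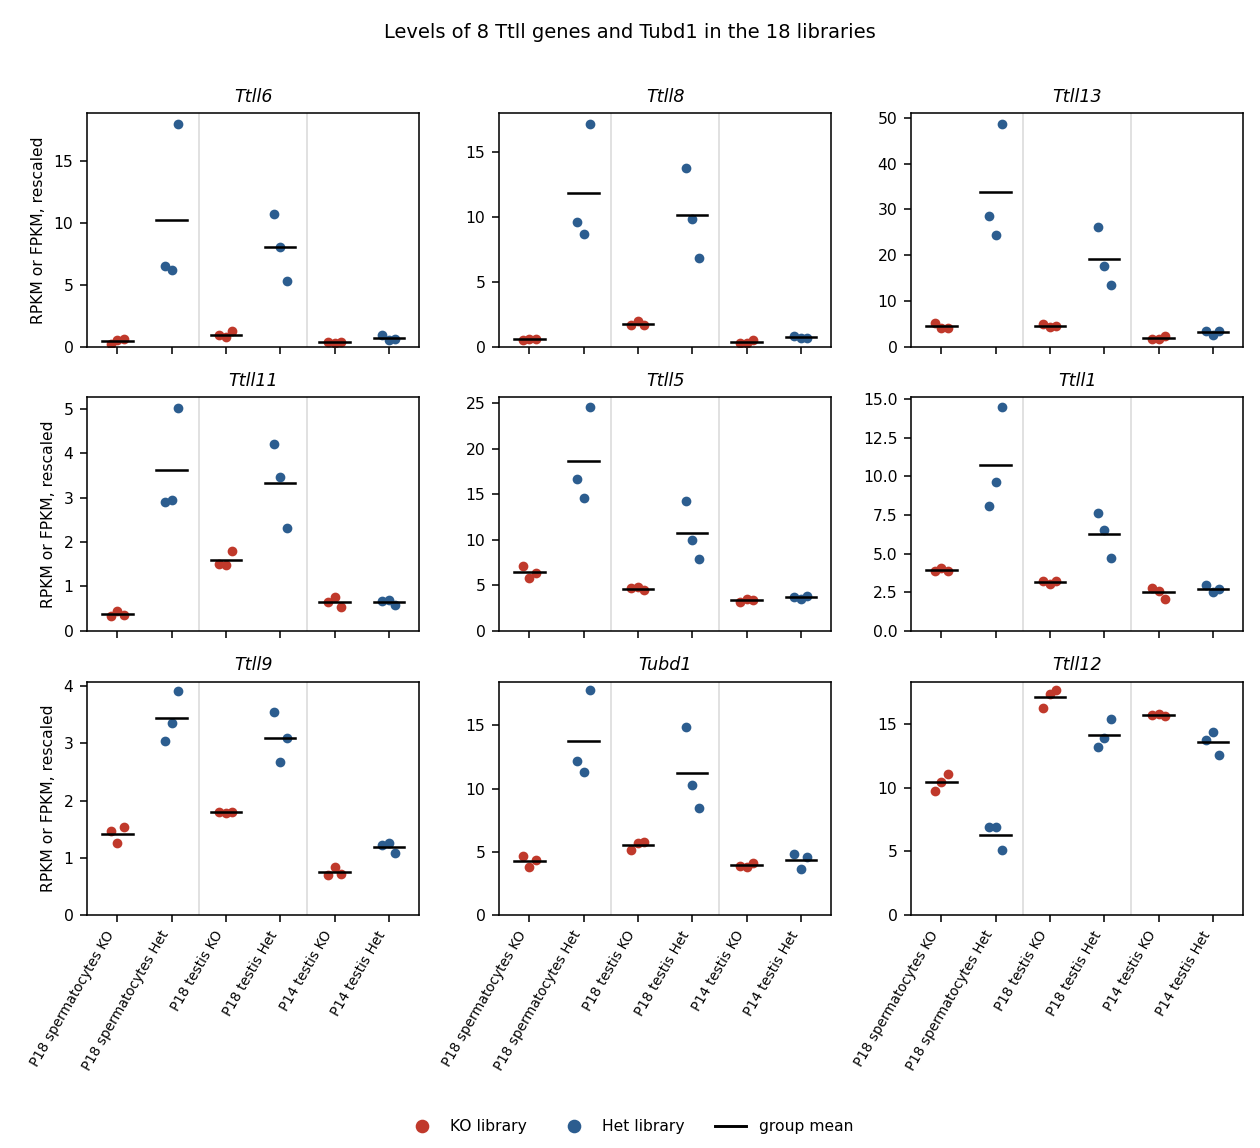
Level (RPKM or FPKM, rescaled) of 8 Ttll genes and Tubd1 in each library (points) with the group mean (line), for the 6 groups, KO left of Het. The KO points of Ttll6 and Ttll8 in spermatocytes lie between 0.245 and 0.588 and their Het points between 6.20 and 17.9, whereas Ttll12 lies higher in KO than in Het.

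Ttll5 and Ttll1 had smaller differences. Ttll5 (chr12:85824659-86061893), a glutamylase with a part in mouse sperm movement, was at 7.10, 5.79 and 6.35 in KO spermatocytes and at 16.7, 14.6 and 24.5 in Het spermatocytes (-1.44 ± 0.19, adjusted p = 0.0017), and at 4.63, 4.78 and 4.46 in KO testis and 14.3, 10 and 7.85 in Het testis (-1.09 ± 0.20, adjusted p = 0.0149). Ttll1 (chr15:83483769-83510893), the catalytic subunit of a glutamylase complex, was at 3.84, 4.06 and 3.90 in KO spermatocytes and at 8.10, 9.65 and 14.5 in Het spermatocytes (-1.30 ± 0.20, adjusted p = 0.00315), and at 3.20, 3.01 and 3.24 in KO testis and 7.65, 6.51 and 4.72 in Het testis (-0.87 ± 0.17, adjusted p = 0.016). Again no KO library overlapped a Het library. Both testis calls ended without Het replicate 2 or any 1 KO library (adjusted p 0.0532 to 0.0663).

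Ttll9 (chr2:152962485-153008482), a glutamylase needed for normal mouse sperm movement, was at 1.46, 1.25 and 1.54 in KO spermatocytes and at 3.05, 3.36 and 3.92 in Het spermatocytes (-1.04 ± 0.16, adjusted p = 0.00286). The P18 testis values were 1.80, 1.79 and 1.79 in KO and 3.55, 2.67 and 3.09 in Het (-0.65 ± 0.13, adjusted p = 0.0174), and that call ended without any 1 KO library (adjusted p 0.0537 to 0.0662). The groups were apart in both. Ttll4, a glutamylase that also acts on proteins other than tubulin, was at 10.6, 10.2 and 9.80 in KO spermatocytes and at 14.5, 12.7 and 14.6 in Het spermatocytes (-0.43 ± 0.09, adjusted p = 0.0119), without overlap, a call lost when Het replicate 1 or else replicate 3 of KO was left out (adjusted p 0.0504 and 0.0572) and with the values as deposited. Ttll4 did not pass in P18 testis (-0.05, adjusted p = 0.567).

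Ttll12 (chr15:83575090-83595157) was at 9.74, 10.5 and 11.0 in KO spermatocytes and at 6.87, 6.87 and 5.09 in Het spermatocytes (0.70 ± 0.14, adjusted p = 0.00785). In P18 testis it was at 16.3, 17.4 and 17.7 in KO and at 13.2, 13.9 and 15.4 in Het (0.27 ± 0.08, adjusted p = 0.0476). KO was higher in every library of both, although the testis call ended in 5 of the 6 fits without 1 library, all but that without Het replicate 3 (adjusted p 0.0766 to 0.148). Ttll12 lies 64.2 kb from Ttll1 on chromosome 15, and these neighbours moved in opposite directions. Ttll2 and Ttll7 had means below 1 in all 6 groups.

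The divergent tubulins differed from each other. Tubd1 (delta-tubulin, chr11:86544991-86567360), of centriole structure, was at 4.64, 3.81 and 4.32 in KO spermatocytes and at 12.2, 11.3 and 17.8 in Het spermatocytes (-1.56 ± 0.18, adjusted p = 0.000897). In P18 testis it was at 5.16, 5.69 and 5.80 in KO and at 14.9, 10.3 and 8.44 in Het (-0.92 ± 0.20, adjusted p = 0.0228), a call that ended without Het replicate 2 or any 1 KO library (adjusted p 0.0693 to 0.0744). The groups did not overlap. Tube1 (epsilon-tubulin), also of centrioles, was at 2.79 ± 0.223 in KO spermatocytes and 2.96 ± 0.193 in Het spermatocytes (SD, n = 3 each) and did not pass in either comparison. Tubal3 stayed below a mean of 1 in all groups.

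Gamma-tubulin and its complex had small differences. Tubg1, the main gamma-tubulin, was at 19.9, 22.6 and 20.3 in KO spermatocytes and at 16.4, 16.7 and 14.2 in Het spermatocytes (0.40 ± 0.10, adjusted p = 0.0199). Tubgcp3, a core subunit, was at 11.9, 11.9 and 10.6 in KO spermatocytes and at 9.86, 8.91 and 7.88 in Het spermatocytes (0.35 ± 0.11, adjusted p = 0.0443). Both stood higher in every KO library, and their calls ended without 1 library: Tubg1 without KO replicate 2 or 3 (adjusted p 0.0598 and 0.0823), Tubgcp3 without any 1 of Het replicates 2 and 3 and the KO libraries (adjusted p 0.0768 to 0.142).

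Tubgcp4, a subunit of the gamma-tubulin ring, went down: it was at 10.1, 9.31 and 10.1 in KO spermatocytes and at 14, 13.1 and 15.7 in Het spermatocytes (-0.52 ± 0.10, adjusted p = 0.00726), with no overlap. None of the 6 genes of this group that could be tested passed in P18 testis by limma, where 1 had an unadjusted p under 0.05. Of all 18790 genes tested in P18 testis, 7550 had such a p. There limma-voom called Tubgcp3 (adjusted p = 0.0391), as did the values as deposited (adjusted p = 0.0493), and leaving out Het replicate 3 called Tubgcp4 (adjusted p = 0.0382). Tubgcp2, Tubgcp5 and Tubgcp6, further subunits, had means of 5.42 to 28.6 over the 6 groups and did not pass between KO and Het in limma. In spermatocytes, Tubgcp2 passed as lower in KO without Het replicate 2 (adjusted p = 0.0217), and Tubgcp5 as higher in 1 fit over all 18 libraries (adjusted p = 0.0309). Tubg2 had means of 0.356 to 1.92.

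Counted together, 4 members rose and 12 fell of 29 tested in spermatocytes, where 12.7% of all 15926 genes tested rose and 25.1% fell. In P18 testis 6 rose and 11 fell of 30 tested, where 6.52% of all 18790 genes tested rose and 17.0% fell. The members that did not reach the filter numbered 9 in spermatocytes and 8 in P18 testis. Of the 12 that fell in spermatocytes, 10 also fell in P18 testis (83.3% of the 12 and 90.9% of the 11 in testis): Ttll1, Ttll5, Ttll6, Ttll8, Ttll9, Ttll11, Ttll13, Tuba3a, Tuba3b and Tubd1. Ttll12 and Tubb5 rose in both (50% of the 4 and 33.3% of the 6). How many of all genes fell or rose in both was not counted, so this overlap is not shown to be particular to the members. The median log2 difference of the members tested was -0.17 in spermatocytes and -0.04 in P18 testis. Without rescaling between libraries, the median of all genes moved by 0.17 in spermatocytes and 54.3% of all called genes were higher, against 33.6% after rescaling, and 56.7% were higher with 1 fit over all 18 libraries; in P18 testis the median moved by 0.08 and 46.4% were higher, against 27.7%.

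The number of members called in P18 testis depended on single libraries. It was 0 higher and 6 lower without Het replicate 2, and 0 higher and 5 lower when KO replicate 2 or 3 was left out. Leaving out KO replicate 1 gave 3 higher and 5 lower, and leaving out Het replicate 1 gave 2 higher. Counts over all genes in these fits are not given here, so the drop is not shown to be particular to the members. The falls of Tuba3a, Tuba3b, Ttll6, Ttll8 and Ttll13 passed in each of these fits and under every other setting tried in testis. In spermatocytes 2 members rose without KO replicate 1 and 1 rose without KO replicate 2 or 3. Ttll6, Ttll8 and Ttll11 failed the filter there once a Het library was left out, so 3 of the 12 falls were not tested in 3 of the 6 fits. When the fits kept the genes tested with all libraries, a choice made after seeing the data, 11 of the 12 falls passed in each of the 6, all but Ttll4.

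**Figure D4:**
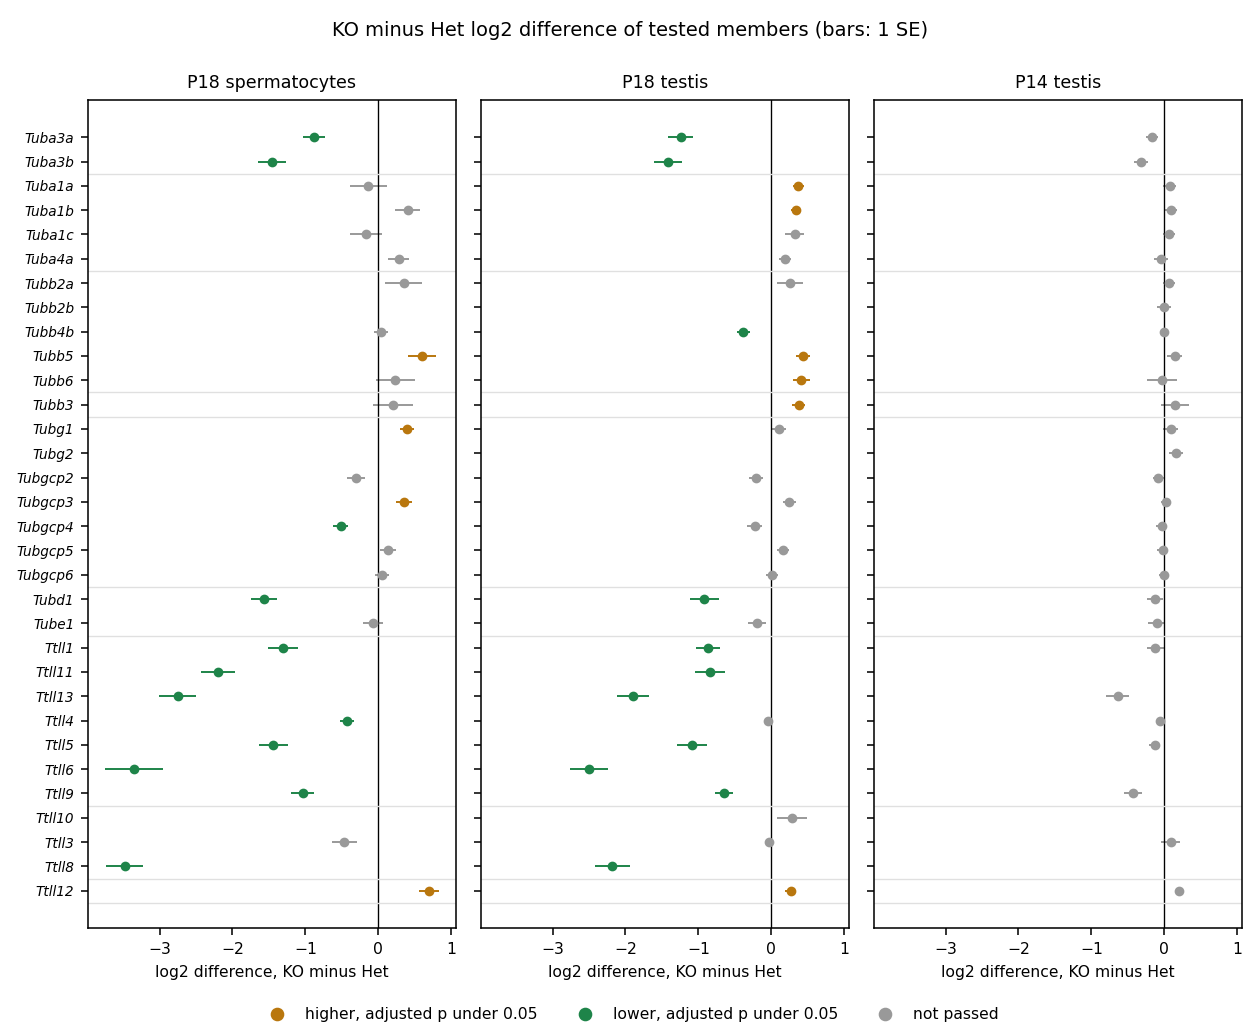
KO over Het difference (log2, with SE as bars) for the 32 members tested in at least 1 of spermatocytes at P18, testis at P18 and testis at P14; coloured points passed the threshold of 0.05 and grey points did not. Ttll6, Ttll8, Ttll13, Tuba3a and Tuba3b lie well below 0 at P18 in both kinds of sample, and every point at P14 is grey.

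The late meiotic markers moved with these falls. The sum of the 6 genes of late pachytene and after (Piwil1, Ccna1, Pgk2, Spag6, Ldhc and Tdrd6) was 25.5 to 46.4 in KO spermatocytes and 812 to 1701 in Het spermatocytes, and 65.7 to 69.2 in KO testis and 359 to 896 in Het testis. Among the Het testes, replicate 1 was the highest and replicate 3 the lowest for that sum and for Tuba3a, Tuba3b, Ttll6, Ttll8, Ttll13, Ttll5, Ttll1, Ttll11 and Tubd1. Ttll9, which also fell in both, was at 3.55, 2.67 and 3.09 in Het testis, with replicate 2 the lowest. Among the Het spermatocytes, replicate 3 was the highest for that sum, for the same 9 genes and for Ttll9. The part of the late markers in the differences between genotypes was not tested. The sum of 6 general spermatocyte markers was 942 to 1088 in KO spermatocytes and 984 to 1164 in Het spermatocytes. Of these 6 markers, 2 fell and 0 rose in KO spermatocytes, with a median log2 difference of 0.01 and a lowest of -1.39. In P18 testis 2 of the 6 fell and 0 rose. Of all genes, 25.1% fell in spermatocytes and 17.0% in P18 testis.

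Whether KO changed a member by a different amount in spermatocytes than in testis was tested in 1 fit of the 12 P18 libraries. None of the 30 members tested passed in limma, where 0.0602% of all genes passed higher and 1.22% lower. An unadjusted p under 0.05 was found for 11 members and for 3071 of all 19930 genes tested. Limma-voom called 1 of the 30 members. The nearest were Ttll11 (-1.45 ± 0.32, adjusted p = 0.0546), Ttll4 (-0.47 ± 0.12, adjusted p = 0.0913) and Ttll8 (-1.40 ± 0.37, adjusted p = 0.0931), all with the larger fall in spermatocytes. The count of members was 2 without Het replicate 2 and 1 without Het replicate 3 of the spermatocytes. The median difference over all genes was -0.10 in the fit of 12 libraries, where 12 genes passed higher and 244 lower. With 1 fit over all 18 libraries that median was 0.08, and 663 genes passed higher and 315 lower.

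Members differed between spermatocytes and testis at a share near that of all genes. In KO, 8 members were higher and 12 lower of 30 tested, where 22.9% of all genes were higher and 38.7% lower. In Het, 11 were higher and 9 lower, where 27.0% of all genes were higher and 31.7% lower. Of all genes called, 37.2% were higher in KO spermatocytes, against 47.8% with median-of-ratios scaling and 37.7% without rescaling. In Het spermatocytes 46.0% were higher, against 53.2% with median-of-ratios scaling and 34.7% without rescaling. Besides Tuba1a, Tuba1b and Tubb3, the members that were lower in spermatocytes of both genotypes were Tuba1c, Tubb5, Tubb6, Ttll3, Ttll10 and Ttll12. Of these, Ttll10 was below 1 in every spermatocyte library, so it reached the filter through the testis libraries alone. Tubg1, Tube1, Tubgcp2, Tubgcp3 and Tubgcp6 were higher in both, with log2 differences of 0.46 to 0.71 in KO and 0.41 to 0.88 in Het. Ttll1, Ttll5 and Ttll13 did not pass between KO spermatocytes and KO testis (0.31, 0.46 and -0.02) and were higher in Het spermatocytes than in Het testis (0.83, 0.89 and 0.91). Ttll8 and Ttll11 were lower in KO spermatocytes than in KO testis (-1.08 and -1.25) and did not pass in Het (0.32 and 0.20). Both were below 1 in every KO spermatocyte library, so they reached the filter through the other libraries. The difference of these differences is the test given above, which no member passed.

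**Figure D5:**
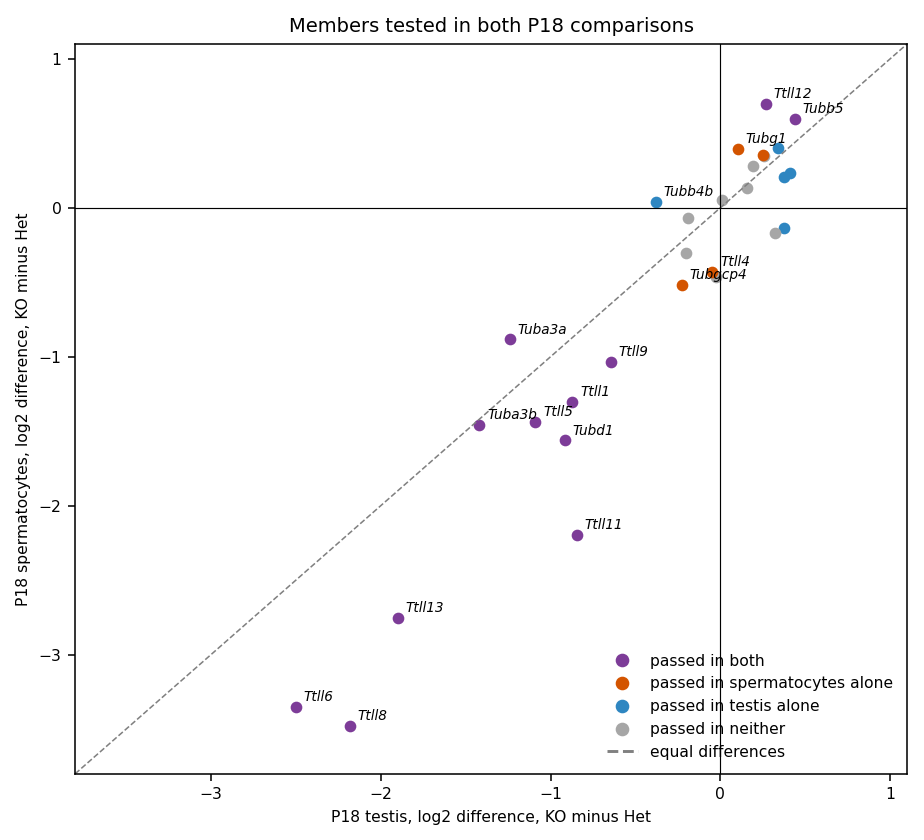
KO over Het difference (log2) in P18 spermatocytes (vertical axis) against that in P18 testis (horizontal axis) for the 29 members tested in both, with the line of equal values; colours show in which comparison a member passed. The comparisons share no library, and 18 members lie below the line, where Ttll6, Ttll8, Ttll13 and Ttll11 lie furthest down.

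At P14 no member passed between KO and Het: 0 of 28 by limma, where 0.0113% of all 17703 genes tested rose and 0.153% fell. By unadjusted p under 0.05 there were 4: Ttll13 (-0.64 ± 0.16, adjusted p = 0.234), Ttll9 (-0.43 ± 0.13, adjusted p = 0.346), Tuba3b (-0.32 ± 0.10, adjusted p = 0.373) and Ttll12 (0.21 ± 0.06, adjusted p = 0.337). Of all 17703 genes tested, 1586 had an unadjusted p under 0.05. Limma-voom called 1 member, Ttll13. Ttll13 was at 1.72, 1.55 and 2.35 in KO testis and at 3.49, 2.63 and 3.44 in Het testis, without overlap. Ttll8 was at 0.251, 0.273 and 0.519 in KO and at 0.842, 0.676 and 0.686 in Het and was too low to be tested there. Tuba3a was at 152, 151 and 166 in KO and at 196, 171 and 160.5 in Het, and these overlapped.

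Levels at P18 and P14 are set side by side with a limit. The P14 tables place reads of near-identical copies that the P18 tables do not: processed pseudogenes held 8.80% to 9.40% of the summed value at P14 and 0.492% to 0.644% at P18, and Tubb4b-ps1 averaged 1.39 in KO testis and 1.5 in Het testis at P18 and 76.1 in KO testis and 76.3 in Het testis at P14. For members that share sequence with copies, a difference between ages and this difference in counting cannot be told apart. A further 11 of the 38 members had another gene length behind their P14 values and were not tested between ages, Tuba1a, Tuba1c, Ttll1, Ttll5 and Ttll12 among them.

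With that limit, 6 members were higher at P18 and 3 lower of 23 tested in KO testis, where 18.5% of all 15849 genes were higher and 24.9% lower. In Het testis 12 were higher and 4 lower, where 30.4% of all genes were higher and 31.1% lower. Ttll6, Ttll8, Ttll10 and Ttll11 had levels below 1 in every P14 library, so they reached the filter through P18 libraries. Of all genes called, 42.6% were higher at P18 in KO and 49.4% in Het, against 77.3% in KO and 65.3% in Het without rescaling. Ttll8 rose by 1.26 ± 0.22 in KO and by 2.89 ± 0.22 in Het, and Ttll13 by 0.88 ± 0.21 in KO and by 2.16 ± 0.21 in Het. Ttll6 had a difference of 0.62 ± 0.23 in KO, which did not pass (adjusted p = 0.051), and rose by 2.64 ± 0.23 in Het. These 3 enzymes share under 10% of their 50-base stretches with other genes. Ttll11 rose by 0.70 ± 0.18 in KO and by 1.56 ± 0.18 in Het. Tubd1 did not pass in KO (0.21) and rose by 1.04 ± 0.17 in Het. Among members that share sequence with copies, Tuba3a did not pass in KO (-0.00) and rose by 1.12 ± 0.15 in Het, Tuba3b did not pass in KO (0.27) and rose by 1.43 ± 0.17 in Het, and Tuba1b fell by 1.5 in KO and by 1.71 in Het. Ttll9 and Ttll3 rose in both, by 0.69 and 0.52 in KO and by 0.92 and 0.68 in Het.

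The difference between KO and Het was itself larger at P18 than at P14 for 6 of the 23 members, where 7.34% of all genes passed in that direction and 0.309% in the other. These were Ttll6 (-2.02 ± 0.33, adjusted p = 0.00734), Ttll8 (-1.62 ± 0.31, adjusted p = 0.0127), Ttll13 (-1.29 ± 0.30, adjusted p = 0.0301), Tuba3b (-1.15 ± 0.24, adjusted p = 0.019), Tuba3a (-1.12 ± 0.21, adjusted p = 0.012) and Tubb4b (-0.42 ± 0.11, adjusted p = 0.0435). Of these, Tuba3a, Tuba3b and Tubb4b share 35.3%, 29.6% and 41.3% of their 50-base stretches with other genes. At P14 Ttll6 was at 0.346, 0.310 and 0.407 in KO testis and at 0.925, 0.528 and 0.609 in Het testis. Ttll6 and Ttll8 had levels below 1 in every P14 library, so they reached the filter through P18 libraries. The log2 scale used understates differences at such levels, here those at P14. Ttll11 (-0.86, adjusted p = 0.0629) and Tubd1 (-0.83, adjusted p = 0.0643) did not pass, and both passed without Het replicate 3 of P18 testis (adjusted p 0.0068 and 0.0107). With 1 fit over all 18 libraries, 2 of the 6 passed, Ttll8 and Tuba3a, and with limma-voom 3 did, Tuba3a, Tuba3b and Tubb4b.

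Genes that work with the members were counted from 4 lists. Of the 9 subunits of CCT, the chaperonin that folds tubulin, 4 fell in spermatocytes, where 25.1% of all genes fell, and 8 in P18 testis, where 17.0% did. Tcp1 averaged 116 in KO spermatocytes and 241 in Het spermatocytes (-1.03 ± 0.17, adjusted p = 0.004), and 79.8 in KO testis and 152 in Het testis (-0.90 ± 0.15, adjusted p = 0.011). Cct6b, a testis form of 1 subunit, averaged 2.88 in KO spermatocytes and 52.2 in Het spermatocytes (-3.88 ± 0.28, adjusted p = 0.00016), and 3.51 in KO testis and 31.5 in Het testis (-2.87 ± 0.36, adjusted p = 0.0055). The median of the 9 was -0.25 in spermatocytes and -0.41 in P18 testis.

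Of 14 tested partners and reverse enzymes of tubulin modification, 2 rose and 9 fell in spermatocytes, where 12.7% of all genes rose and 25.1% fell, and 8 fell in P18 testis, against 17.0% of all genes. The deglutamylases Agbl5 and Agbl2, which remove glutamates, fell in both. Agbl5 averaged 15.4 in KO spermatocytes and 79.3 in Het spermatocytes (-2.27 ± 0.23, adjusted p = 0.00058), and 15.4 in KO testis and 46.9 in Het testis (-1.53 ± 0.21, adjusted p = 0.0065). Agbl2 averaged 4.64 in KO spermatocytes and 27.2 in Het spermatocytes (-2.39 ± 0.24, adjusted p = 0.00052). The 2 that rose were Hdac6, a tubulin deacetylase, and Vash1, which removes the last tyrosine (0.64 each).

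In spermatocytes the counts of the last 2 lists were near the shares of all genes, of which 12.7% rose and 25.1% fell. In P18 testis 6.52% of all genes rose and 17.0% fell. Of the 7 tubulin folding cofactors, 1 rose and 2 fell in spermatocytes and 2 fell in P18 testis. Tbcel averaged 8.59 in KO spermatocytes and 15.0 in Het spermatocytes (-0.77 ± 0.16, adjusted p = 0.0098). Of 14 genes that recruit gamma-tubulin or branch microtubules, 1 rose and 3 fell in spermatocytes and 1 rose and 4 fell in P18 testis. Mzt2, a small subunit of the gamma-tubulin complex, averaged 5.11 in KO spermatocytes and 24.6 in Het spermatocytes (-2.09 ± 0.26, adjusted p = 0.0012), and 6.20 in KO testis and 18.5 in Het testis (-1.43 ± 0.27, adjusted p = 0.016). No gene of the 4 lists passed at P14.

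The promoters of the members with the largest falls, and of Tuba3a, are shown because these genes moved together. Each is the 250 bases before the RefSeq start (GRCm38.p6), 5′ to 3′ on the strand of the gene. Capitals mark matches to the motifs searched on both strands: the MYB motif in the form CAACTG, in the form CAACGG, in the form TAACTG and in the form TAACGG, the X-box half-site GTTGCCA, the cyclic AMP response element (CRE) TGACGTCA, and a spaced X-box pair, GTTGCCNNNGCAAC, with N for any base, or the same with 1 N fewer or 1 N more. The pair was added after the sequences had been seen.
Ttll6 (chr11:96133536-96133785, plus strand): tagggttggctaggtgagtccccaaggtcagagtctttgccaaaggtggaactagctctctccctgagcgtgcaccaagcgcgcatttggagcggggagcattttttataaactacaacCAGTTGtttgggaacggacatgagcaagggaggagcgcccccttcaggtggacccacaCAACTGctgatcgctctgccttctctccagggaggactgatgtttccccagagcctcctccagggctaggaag
Ttll8 (chr15:88954419-88954668, minus strand): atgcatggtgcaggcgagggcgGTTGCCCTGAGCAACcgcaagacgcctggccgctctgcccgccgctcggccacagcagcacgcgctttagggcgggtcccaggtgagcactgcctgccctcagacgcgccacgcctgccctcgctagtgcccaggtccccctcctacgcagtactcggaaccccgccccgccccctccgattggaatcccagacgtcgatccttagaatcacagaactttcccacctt
Ttll13 (chr7:80246126-80246375, plus strand): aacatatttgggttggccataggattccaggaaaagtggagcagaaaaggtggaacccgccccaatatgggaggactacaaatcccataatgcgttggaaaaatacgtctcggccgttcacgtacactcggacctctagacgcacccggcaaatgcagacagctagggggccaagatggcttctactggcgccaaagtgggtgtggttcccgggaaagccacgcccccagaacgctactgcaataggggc
Tuba3a (chr6:125286082-125286331, minus strand): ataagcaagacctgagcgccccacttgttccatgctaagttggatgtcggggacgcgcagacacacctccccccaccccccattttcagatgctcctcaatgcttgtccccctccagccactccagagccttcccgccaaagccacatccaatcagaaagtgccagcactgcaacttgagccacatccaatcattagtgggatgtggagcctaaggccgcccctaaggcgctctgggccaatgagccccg

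Ttll6 had 2 MYB matches, 131 and 73 bases before the start, and both also spell the E-box CANNTG. Ttll8 had the spaced X-box pair, and Ttll13 and Tuba3a had no match. Of the 32 members with a promoter in the table, 9 held the MYB motif, against 23.7% of all 32851 promoters. It stood in 2 of the 10 members that fell in spermatocytes and have a promoter, Ttll5 and Ttll6, and in 3 of the 14 others tested there. No member held the X-box half-site, against 3.66% of all promoters. The CRE stood in 1, Tubb2a, against 1.55% of all. The spaced pair stood in Ttll8 among the members and in 0.286% of all promoters. A match describes letters in these windows and is no evidence of binding.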

How the data were processed

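The authors sequenced poly(A) RNA of 18 libraries and deposited 1 table for each. Per the file headers, the unit is FPKM in the P18 testis tables and RPKM in the spermatocyte and P14 tables. The submitters' processing notes name GRCm38, STAR 2.6.1a, featureCounts, CASAVA 1.9 and edgeR 3.28.1, with no roles; the strand setting is not given in the sources used here. Low values times the merged exon length of GENCODE M21 came out as whole reads (within 0.005 of a read) for 92.97% to 99.13% of them per library, which gave the depth.

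Within each fit, libraries were rescaled by TMM (trims of 30% and 5%), with factors of 0.890 to 1.07 between libraries of a kind of sample. A gene was tested if 3 or more libraries reached a value of 1. Tests were made with limma 3.58.1 (R 4.3.3; trend, robust, two-sided) on log2(value + 0.5), 6 libraries per fit for KO against Het and 12 for every other comparison. Comparisons of ages kept genes with the same length behind both sets of values. Shares were taken from the deposited values. The fits were also run on simulated data with a fixed spread between libraries. That run does not show how they perform at the wider spread of some groups here. No library was a copy of another. Python 3.11.15, numpy 2.4.6, pandas 2.3.3 and matplotlib 3.10.9 were used for the rest.

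Named members were those past the threshold between KO and Het with a group mean of at least 1; the others are given by range and count. The members and the gene lists were chosen with earlier results of these data known. Alternatives were other scalings, pseudocounts of 0.1 and 1, a filter of 5 or none, 1 fit over all 18 libraries, limma-voom on recovered reads, the replicate number as a block, leaving out each library, and, added after seeing the data, members with under 10% of 50-mers shared and leaving out each library with the genes of the full fit kept. The promoter table held no entry for Ttll1 or Ttll11.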

Additional observations from a re-analysis of the deposited data

Results flagged for a closer look

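For 6 members, the KO over Het difference in testis at P18 and that at P14 differed by a test of the difference itself, in 1 limma fit of 12 testis libraries. The values are the log2 difference at P18 minus that at P14. Ttll6 was at -2.02 ± 0.33 (SE, adjusted p = 0.00734), Ttll8 at -1.62 ± 0.31 (adjusted p = 0.0127) and Ttll13 at -1.29 ± 0.30 (adjusted p = 0.0301). Tuba3b was at -1.15 ± 0.24 (adjusted p = 0.019), Tuba3a at -1.12 ± 0.21 (adjusted p = 0.012) and Tubb4b at -0.42 ± 0.11 (adjusted p = 0.0435). KO was lower than Het at P18 in every library for each of the 6, and at P14 the libraries of Tuba3a and Tubb4b overlapped between genotypes. Ttll6 and Ttll8 had levels below 1 in every P14 library, where the log2 scale used understates differences. The sum of the late pachytene markers, whose part was not tested, was 65.7 to 69.2 in KO testis and 359 to 896 in Het testis at P18, and 4.70 to 9.26 in KO testis and 27.3 to 48.7 in Het testis at P14. The call of Tuba3a held under every setting tried. That of Ttll6 ended with 1 fit over all 18 libraries (adjusted p = 0.0515) and with limma-voom (adjusted p = 0.115). That of Ttll8 ended with a pseudocount of 0.1 (adjusted p = 0.051), with limma-voom (adjusted p = 0.311) and without Het replicate 2 of P18 testis (adjusted p = 0.053). The fit over all 18 also ended those of Tuba3b, Ttll13 and Tubb4b (adjusted p 0.0663, 0.106 and 0.22), limma-voom that of Ttll13 (adjusted p = 0.141), no filter those of Ttll13 and Tubb4b (adjusted p 0.0556 and 0.0726), and both other scalings that of Tubb4b (adjusted p 0.0875 and 0.0934). The call of Tuba3b also ended without Het replicate 2 or KO replicate 3 of P14 testis or Het replicate 2 of P18 testis (adjusted p 0.0533 to 0.0623), and the calls of Ttll13 and Tubb4b in 9 and 10 of the 12 fits without 1 library (adjusted p 0.0529 to 0.0782 and 0.0567 to 0.108).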

How the results depend on the processing

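The falls of Tuba3a, Tuba3b, Ttll6, Ttll8 and Ttll13 at P18 passed in spermatocytes and in testis under every setting in which they were tested; in spermatocytes Ttll6 and Ttll8 failed the filter without a Het library, and passed when the genes of the full fit were kept. With 1 library left out, the members called in P18 testis numbered 0 to 6 higher and 5 to 12 lower, and in P18 spermatocytes 1 to 3 higher and 8 to 12 lower; at P14 they were 0 in each fit. Between spermatocytes and testis they numbered 7 to 8 higher and 11 to 12 lower in KO, 11 to 13 higher and 8 to 9 lower in Het, and 0 to 2 lower for genotype by kind of sample. Between ages they numbered 5 to 7 higher and 2 to 3 lower in KO, 10 to 12 higher and 4 lower in Het, and 2 to 8 for genotype by age. Counts over all genes in the fits with 1 library left out are not given here. With no filter, 3 members were higher in KO testis at P18 and 1 in KO spermatocytes (the testis calls of Ttll11, Ttll12, Tubb3, Tubb4b and Tubb6 and the spermatocyte calls of Tubb5, Tubg1 and Tubgcp3 ended, adjusted p 0.0528 to 0.106); with 1 fit over all 18 libraries, 1 in testis and 7 in spermatocytes. The effect of KO on the difference of spermatocytes from testis was called higher in 1 member with the values as deposited and in 1 with 1 fit over all 18 libraries, and lower in 2 with a pseudocount of 0.1, in 1 with the fit over all 18 and in 1 with limma-voom. Limma-voom also called 1 member lower in KO at P14 and 3 for genotype by age, and 1 fit over all 18 called 2 for genotype by age. In KO testis, 15 members were higher at P18 than at P14 with the values as deposited and 3 with a filter of 5. In that comparison, values as deposited turned 3 members that had not passed round, to 0.23 (Ttll4), 0.28 (Tubgcp2) and 0.27 (Tubgcp5); that setting moved the median of all genes by 0.28 in KO and by 0.17 in Het.

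Among members with under 10% of 50-mers shared, counted after seeing the data, 4 were higher in KO and 7 in Het spermatocytes than in testis, 1 was lower at P18 than at P14 in KO and 2 in Het, and 3 passed for genotype by age; fewer members are counted there. Without the isotypes that share the most 50-mers (52.7% to 75.5%), Tuba3a and Tuba3b held 99.3% of alpha-tubulin in KO spermatocytes and 99.7% in Het spermatocytes, 98.9% in KO testis and 99.6% in Het testis at P18, and 98.9% in KO testis and 99.0% in Het testis at P14, since that leaves out Tuba1a, Tuba1b and Tuba1c.

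Whether the replicate numbers pair the libraries was not settled, and the main fits used no block. Same-numbered deviations correlated at 0.239, 0.0566 and 0.0927 in spermatocytes. They correlated at 0.0265, -0.0121 and -0.0305 in P18 testis and at 0.0841, 0.083 and 0.105 at P14. In spermatocytes and P14 testis every library correlated best with its own number, a pattern that pairing would give, and in P18 testis not every library did. With the number as a block, 4 members rose and 13 fell in KO spermatocytes (Tubgcp2 passed too, adjusted p = 0.0496), 5 rose and 8 fell in KO testis at P18 (the calls of Tubb4b, Ttll11, Ttll12 and Tubd1 ended there, adjusted p 0.0548 to 0.0793), none passed at P14, and 5 passed for genotype by age (Tubb4b did not, adjusted p = 0.0852). Levels of about 0.05 to 0.11 are worth 1 read on a gene of 1 kb, so low members such as Ttll10 in spermatocytes rest on few reads.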
